A study of Arabidopsis thaliana and Nicotiana benthamiana and Solanum lycopersicum with 20 samples.

Results

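The GLK2 sites of tobacco (Nicotiana benthamiana) leaf that had no GLK1 summit beside them are described here. They were selected on the deposited peak lists themselves: a GLK2 summit in replicate 1 with a fold change over the control of 8 or more, a GLK2 summit in replicate 2 that also reached 8 and lay closer than 150 bp, and no summit in either GLK1 list closer than 150 bp. A summit is the position of highest enrichment in a peak, and each deposited peak is a window of 150 bp centred on it, so the rule keeps GLK2 windows that do not overlap any GLK1 window. It found 1227 sites among 7659 GLK2 sites that met both strength limits, and among the 33237 summits of GLK2 replicate 1. The fold changes and positions of the GLK2 summits and the positions of the GLK1 summits, in all 4 tobacco libraries, chose the sites. Strength and the lack of a GLK1 summit are therefore given as descriptions, and no test was made.

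GOLDEN2-LIKE proteins (GLKs) are GARP-family transcription factors (TFs) that bind DNA and activate nuclear genes for chlorophyll synthesis, the light-harvesting antenna and the photosystems. Many plants carry a pair of GLK genes, which can stand in for each other in Arabidopsis leaves, where loss of both gives pale green plants. In ChIP-seq, DNA that is cross-linked to a tagged TF is pulled down with an antibody against the tag and sequenced, and positions enriched over a control are called as summits.

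The tobacco samples were 2 replicates of HA-tagged NbGLK2 and 2 replicates of HA-tagged NbGLK1, each expressed transiently in fully grown leaves of N. benthamiana by infiltration with Agrobacterium and pulled down with an anti-HA antibody. The leaves also carried their own untagged GLK genes, and the level of the introduced TF is not in the peak lists. N. benthamiana is a recent allotetraploid, and for each TF only the gene copy with the higher leaf expression was used. These 4 libraries belong to a series of 20 from 5 species, and all positions are on version 2.5.1 of the N. benthamiana genome.

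The GLK2 lists held 33237 and 47178 summits and the GLK1 lists 22032 and 21383. At a fold change of 8 or more there were 10776 and 14116 GLK2 summits, and 6963 and 7874 GLK1 summits. The median fold change was 6.25 and 6.27 in the GLK2 lists and 6.12 and 6.55 in the GLK1 lists, and the lowest −log10 q was between 1.30 and 1.34 in all 4. The GLK1 lists thus reached as far down in significance as the GLK2 lists but were shorter. A list holds no reads below its threshold, and no read counts at single sites were used here, so a site without a GLK1 summit is one where no GLK1 peak was called. It is not shown to lack GLK1. By the study's reporting summary, the replicates came from separate plants. It also lists a lower share of reads in peaks for both GLK2 libraries than for either GLK1 library. The correlation between the replicates was lower for GLK2 than for GLK1 too. What part this has in the values below was not tested.

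Of all GLK2 replicate 1 summits, whatever their strength, 50.7% had no GLK1 summit closer than 150 bp. Of the 7659 sites at 8 or more in both GLK2 replicates it was 16% (95% Wilson interval 15.2 to 16.9, which covers counting error only). Another 892 of these sites had a GLK1 summit in 1 of the GLK1 lists. The other 5540 had one in both lists and serve below as the sites for comparison. A further 1107 GLK2 replicate 1 summits at 8 or more had no GLK1 summit but also no partner of that strength in GLK2 replicate 2, and were left out. The 1227 sites fell on 1201 different summits of GLK2 replicate 2, since 52 of them shared a partner with a neighbour, and 34 lay closer than 150 bp of another of the sites.

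Strength, one of the values that chose them, was low at most of the sites. In GLK2 replicate 1 their fold change had a median of 11.1, with quartiles of 9.03 and 15.5, against 16.0, with quartiles of 11.1 and 26.4, at the sites with GLK1 in both lists. In GLK2 replicate 2 the median was 13.0, with quartiles of 9.84 and 18.8, against 17.6, with quartiles of 11.9 and 31.6. The median without GLK1 was thus 0.696 times that with GLK1 in replicate 1 and 0.741 times in replicate 2. The quartiles of both kinds of site overlapped in each replicate. Sites with GLK1 in 1 list had medians of 11.8 and 12.6, close to those without GLK1. The −log10 q ran the same way, with medians of 16.1 and 21.0 at the sites without GLK1 and of 27.2 and 33.0 at those with GLK1 in both lists.

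The share of sites without GLK1 was lower in each higher class of GLK2 strength, in both replicates. By the fold change in replicate 1 it was 27.3% (445 of 1632) between 8 and 10, 17.8% between 10 and 15, 14.8% between 15 and 20, 10.2% between 20 and 30 and 6.14% between 30 and 50. At 50 or more it was 1.54%, or 8 of 520 sites (95% Wilson interval 0.782 to 3.01). By the fold change in replicate 2 it was 26.0% (333 of 1282) in the lowest class and 5.25% (40 of 762) in the highest. The sites without GLK1 were therefore few among the strongest peaks. Of the 1000 highest summits of GLK2 replicate 1, 34 were such sites and 927 were sites with GLK1 in both lists, and in replicate 2 the numbers were 60 and 868.

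**Figure D1:**
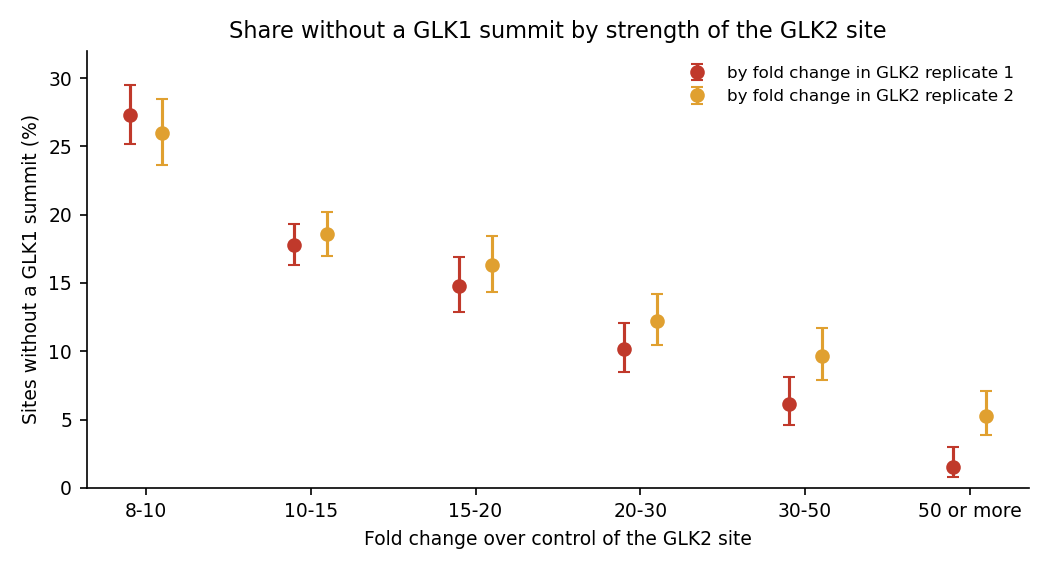
Share of reproducible tobacco GLK2 sites without a GLK1 summit closer than 150 bp (y axis, %), by class of fold change over the control (x axis), with the classes set by GLK2 replicate 1 or by replicate 2. Points are shares and bars 95% Wilson intervals, and the share was 27.3% in the lowest and 1.54% in the highest class of replicate 1.

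Both GLK2 replicates placed these summits close together, a median of 34 bp apart (quartiles 15 and 63 bp), against 22 bp (10 and 45 bp) at the sites with GLK1 in both lists. The fold change was higher in replicate 2 at 804 of the 1227 sites (65.5%), with a median ratio of replicate 2 to replicate 1 of 1.12. The same ratio was 1.12 where GLK1 was present in both lists, with 62.3% of the sites higher in replicate 2. Across the sites without GLK1, Pearson's r of the log2 fold changes in both replicates was 0.663 and Spearman's rho 0.476, against 0.824 and 0.719 across those with GLK1 in both lists. These values describe sites that share their libraries and that cover different ranges of strength. Without the 4 strongest sites, r was 0.603 and rho 0.471.

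**Figure D2:**
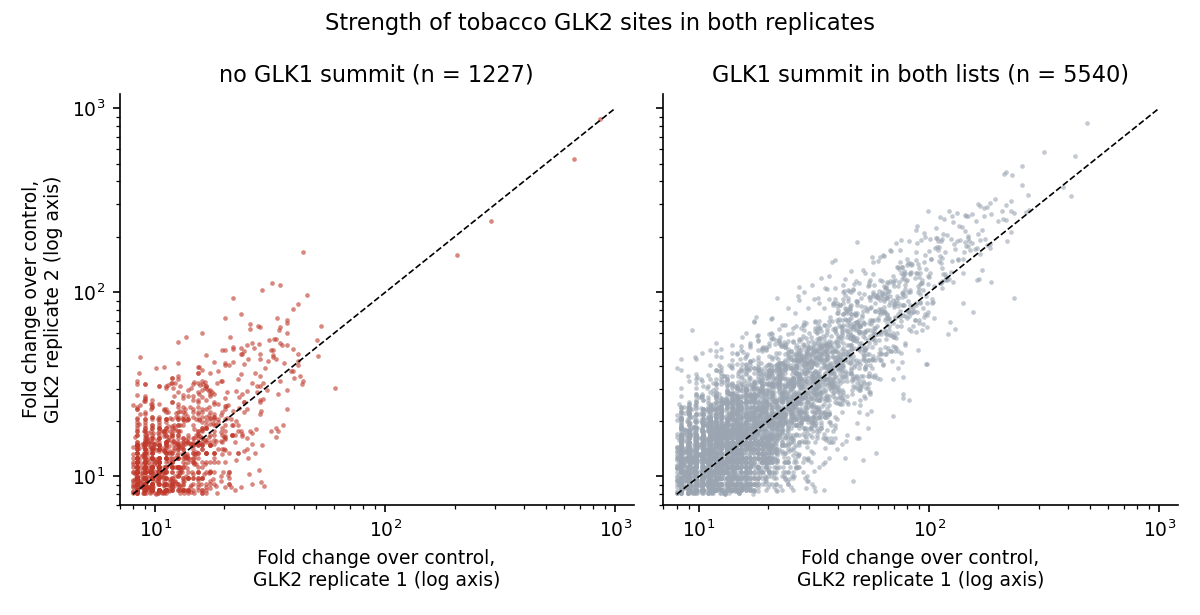
Fold change over the control in GLK2 replicate 1 (x axis) and GLK2 replicate 2 (y axis), both on log axes, of the 1227 tobacco GLK2 sites without a GLK1 summit (left) and of the 5540 with one in both GLK1 lists (right). Each point is a site and the dashed line marks equal values. The medians without GLK1 were 11.1 and 13.0, and 4 sites stood apart at the upper end.

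The 4 strongest sites without GLK1 lay together on chromosome 10, within 4644 bp. The strongest had its summit at 20258089, in the window from 20258014 to 20258163, with fold changes of 853 in replicate 1 and 874 in replicate 2, and it ranked 1 in both GLK2 lists. The next, at 20254806, had 658 and 529, and ranked 2 and 5 in replicates 1 and 2. Those at 20253445 and 20253785 had 287 and 245, and 205 and 159. The geometric mean of both replicates was 181 at the weakest of the 4 and 85.0 at the site that came next, a ratio of 2.13. Together they made up 10.7% of the summed replicate 1 fold change of the 1227 sites, whose mean was 15.3 with them and 13.7 without them, while the median stayed at 11.1.

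GLK2 replicate 2 had 1 more summit in this stretch, at 20257046 with a fold change of 198, for which replicate 1 listed no summit of its own. No GLK1 summit lay among them. The nearest GLK1 summits were more than 15 kb away, between 20237649 and 20237966, where fold changes of 5.62 to 6.42 were listed for GLK2 and of 4.58 to 7.86 for GLK1. The lists of the other TF held the same kind of stretch elsewhere. Of the 221 GLK1 sites that met the same rule with the TFs exchanged, the 4 strongest lay within 3242 bp of chromosome 11, between 2810299 and 2813541. Their fold changes were 804, 493, 272 and 165 in GLK1 replicate 1 and 828, 569, 300 and 192 in replicate 2, and no GLK2 summit was closer than 20986 bp. The GLK1 site that came next had 59.0 and 63.5. The introduced genes carry identifiers of chromosome 10 for NbGLK2 and of chromosome 11 for NbGLK1. Whether these stretches are the GLK genes themselves, and what part the introduced GLK DNA has in their values, was not tested, because no annotation or sequence of this genome was used.

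**Figure D3:**
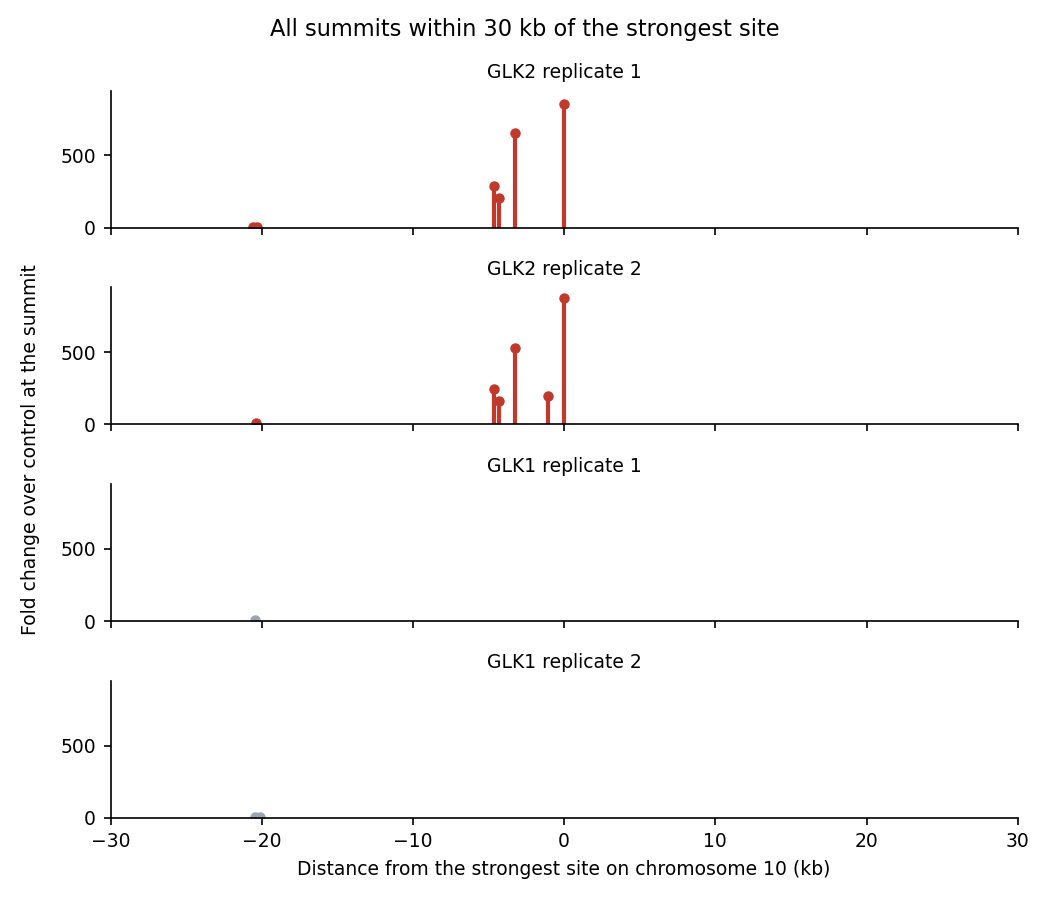
Every summit of the 4 tobacco libraries within 30 kb of the strongest site on chromosome 10, by distance from that site (x axis, kb) and fold change over the control (y axis). The GLK2 libraries had 4 and 5 high summits at the site and to its left, where the GLK1 libraries had none, and all 4 libraries had low summits about 20 kb away.

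The remaining strong sites were scattered and lower. Next by geometric mean was a site on chromosome 7 at 95409752, which had 43.8 in replicate 1 and 165 in replicate 2 and lay 31315 bp from the nearest GLK1 summit. On chromosome 16, the site at 53660515 had 45.9 and 96.3, and its nearest GLK1 summit was 32493 bp away. Both stood alone in their peak region, and both were higher in replicate 2. On chromosome 14, the site at 60691085 had 41.7 and 86.4 and lay 234806 bp from GLK1. A second site of chromosome 10, at 36076560, had 52.6 and 65.2 and lay 157538 bp from GLK1, and is not part of the stretch described above.

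The other members of the 10 strongest had a GLK1 summit just beyond the limit. One of them, at 105131102 of chromosome 15, reached 34.7 and 109, with a GLK1 summit of 6.25 at 190 bp. That on chromosome 7 at 112862642 had 32.1 and 113, with a GLK1 summit of 6.25 at 151 bp. These GLK1 summits were weaker than the GLK2 sites beside them. Such sites would not count under a wider limit, and their nearness to GLK1 differs from that of the isolated sites on chromosomes 7, 14 and 16.

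Distance to the nearest GLK1 summit separated the sites into near and distant ones. The median was 6810 bp and the quartiles were 355 and 51795 bp, over the 1216 sites on a sequence with a GLK1 summit. The smallest distance that the rule allows, 150 bp, was reached, and 265 sites (21.6%, 95% Wilson interval 19.4 to 24.0) lay between 150 and 300 bp. In all, 456 sites (37.2%, 34.5 to 39.9) lay under 1 kb, 198 (16.1%, 14.2 to 18.3) between 1 and 10 kb, and 573 (46.7%, 43.9 to 49.5) at 10 kb or more, 11 of which are on unplaced sequences with no GLK1 summit at all. The median distance moved with the settings, to 273 bp when summits within 75 bp counted as shared and to 30777 bp when only GLK1 summits with a −log10 q of 5 or more counted. At 100 kb or more there were 174 sites with a GLK1 summit on their sequence. For the sites with GLK1 in both lists, the nearest GLK1 summit at 150 bp or more was taken. It lay between 150 and 300 bp at 8.29% of them (7.59 to 9.04), under 1 kb at 23.3% (22.2 to 24.5) and at 10 kb or more at 50.4% (49.0 to 51.7). At these sites it is a further GLK1 summit, beside those closer than 150 bp. A GLK1 summit between 150 bp and 1 kb away was thus more frequent at the sites without GLK1. The rule itself bears on this, since a GLK1 summit just past the limit places a site in this class. At the sites with GLK1 in both lists the distance is to a further summit, so the measures are unlike. At the sites with GLK1 in 1 list a GLK1 summit at this distance was more frequent still. There, such a summit lay between 150 and 300 bp at 46.5% (43.3 to 49.8) and under 1 kb at 59.8% (56.5 to 62.9). It lay at 10 kb or more at 28.4% (25.5 to 31.4). At these sites the summit can be that of the other GLK1 list at the same peak, just past the limit. By its definition this class thus favours near summits, and how much of the 46.5% this makes up was not tested. Nearness of this kind occurred in each class, but the classes were set by GLK1 positions, so their shares are not like measures. The sites are not independent of each other, and these differences were not tested.

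**Figure D4:**
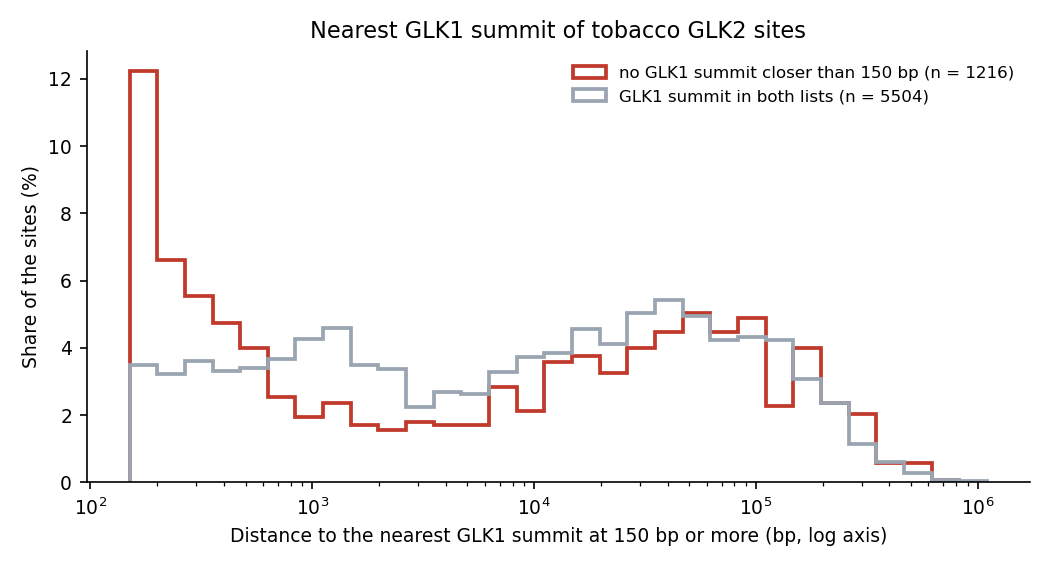
Distance from tobacco GLK2 sites to the nearest GLK1 summit at 150 bp or more (x axis, bp, log axis), as a share of the sites in each class (y axis, %), for sites without a GLK1 summit closer than 150 bp and for sites with one in both GLK1 lists. The first class had a high near its lower limit, with 21.6% of the sites between 150 and 300 bp, and both classes a broad high beyond 10 kb.

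The middle of the strength range was much the same in the near and the distant sites, and the upper end differed mainly in replicate 2. Under 1 kb the median fold change was 11.2 in replicate 1 and 12.5 in replicate 2, between 1 and 10 kb it was 11.1 and 13.0, and at 10 kb or more 11.1 and 13.8, with quartiles that overlapped. In replicate 2, 79 of the 573 sites at 10 kb or more reached a fold change of 30, against 34 of the 456 under 1 kb. In replicate 1 it was 30 of the 573 and 17 of the 456. Of the 10 strongest sites without GLK1, 8 were at 10 kb or more, the 4 on chromosome 10 among them. At the sites with GLK1 in both lists the share that reached 30 was lower in the distant ones. In replicate 1 it was 469 of 2790 at 10 kb or more and 306 of 1292 under 1 kb, and in replicate 2 694 and 343. The ratio between the replicates was further from 1 in the distant sites. There, replicate 2 was higher at 408 of 573 sites (71.2%) with a median ratio of 1.19, against 267 of 456 (58.6%) and a ratio of 1.07 under 1 kb. The sites with GLK1 in both lists showed the same order, with ratios of 1.18 at 10 kb or more and 1.03 under 1 kb. Other measures of the replicates went the other way. Across the distant sites without GLK1, Pearson's r of the log2 fold changes was 0.715 and the replicate summits lay a median of 29 bp apart. Across the near ones it was 0.634 and 40 bp. The r of the distant sites includes the 4 on chromosome 10 and was not computed without them. With GLK1 in both lists r was lower in the distant sites, 0.796 against 0.841, and with GLK1 in 1 list it was 0.615 against 0.689. Replicate summits lay closer together in the distant sites there too, with medians of 21 against 26 bp and of 28 against 36 bp.

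Many near sites shared a peak region with a site of both TFs. MACS2 can place several summits in 1 enriched region, and 339 of the 456 sites under 1 kb (74.3%) came from such a region in GLK2 replicate 1, against 130 of the 573 at 10 kb or more (22.7%). Over all distances it was 521 of 1227 sites (42.5%), against 26.5% of the sites with GLK1 in both lists and 40.2% of those with GLK1 in 1 list. In 310 of the 521, another summit of the same region had a GLK1 summit closer than 150 bp. Seen from the neighbouring GLK1 summit, 290 of the 456 (63.6%, 59.1 to 67.9) had a GLK2 replicate 1 summit closer than 150 bp, 263 of them in the same region as the site, while 79 had none in either GLK2 list.

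At 257 of the 456, both GLK2 lists had a summit at the neighbouring GLK1 summit, so that the fold changes within a list can be compared. The site without GLK1 was the lower of the pair in both lists at 114 of them and the higher in both lists at 46. Its fold change was a median of 0.823 times that of the neighbour in replicate 1 and 0.857 times in replicate 2. The GLK1 summits beside the 456 sites had a median fold change of 6.82 (quartiles 4.86 and 11.6), and 189 of them reached 8. This is near the medians of all GLK1 summits, 6.12 and 6.55. For the sites at 10 kb or more, the nearest GLK1 summit had a median of 5.39.

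The distant sites were also further from other GLK2 summits. At 150 bp or more, a GLK2 summit of any strength in either replicate lay within 10 kb of 352 of the 573 (61.4%, 57.4 to 65.3), against 424 of the 456 sites under 1 kb from GLK1 (93.0%). Within 1 kb it was 43.1% and 84.4%. For the sites with GLK1 in both lists and no further GLK1 summit within 10 kb, a GLK2 summit lay within 10 kb of 57.4% (55.6 to 59.2), so that isolation of this kind is not particular to the sites without GLK1.

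The site farthest from GLK1 was on chromosome 2 at 124705138, 663257 bp from the nearest GLK1 summit, with fold changes of 37.5 and 71.0. The next was on chromosome 5 at 15622309, at 583920 bp, with 12.5 and 53.4. That on chromosome 7 at 45488577 lay 544283 bp away and had 16.7 and 18.3. On chromosome 12, the site at 137907249 lay 519522 bp away and had 11.8 and 32.3. On chromosome 4, that at 53070247 lay 491480 bp away with 8.03 and 8.36, which makes it also one of the weakest. Replicate 2 was the higher at each of these 5 sites.

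Most sites stood alone. Of the 1227, 1100 had no other such site within 1 kb, 59 groups had 2 and 3 groups had 3, so that 127 sites (10.4%, 95% Wilson interval 8.77 to 12.2) had a neighbour of their own kind within 1 kb. Among the sites with GLK1 in both lists, which are more numerous, it was 8.38% (7.67 to 9.13). Counting any reproducible GLK2 site as a neighbour, 345 of the sites without GLK1 (28.1%, 25.7 to 30.7) and 13.7% (12.8 to 14.6) of those with GLK1 in both lists had 1 or more within 1 kb. With GLK1 in 1 list it was 25.8% (23.0 to 28.8), an interval that overlaps that of the sites without GLK1. The median gap to the nearest site of the same kind was 676842 bp without GLK1 and 119782 bp with GLK1 in both lists. More numerous sites lie closer together by their number alone, and the gaps were not adjusted for this.

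The 5 groups with the most sites, with ties set by the summed fold change, were short and differed in strength. The group of 3 with the highest summed fold change was on chromosome 14, where summits at 112424916, 112425072 and 112425194 had 20.4, 19.4 and 17.1 in replicate 1 and lay 1251 bp or more from GLK1. A group of 3 on chromosome 9 spanned 358 bp from 120209588 and had 11.1, 11.1 and 12.8, with a GLK1 summit at 371 bp. That on chromosome 3 spanned 619 bp from 184823230 and had 9.03, 9.03 and 11.1, with a GLK1 summit at 164 bp. In each of these groups 2 of the 3 shared the same summit of replicate 2, so that they may count 1 site more than once. The strongest pair was the one at 20253445 and 20253785 in the stretch on chromosome 10. The pair that followed, on chromosome 9 at 78234367 and 78234473, had 41.6 and 40.3 in replicate 1 and 42.2 and 34.4 in replicate 2, and lay 21193 bp or more from GLK1.

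The sites were spread over all 19 chromosomes, with 1213 on chromosomes and 14 on 13 unplaced sequences. A chromosome held between 50 sites (chromosomes 11 and 19) and 81 (chromosomes 3 and 8), with a median of 60. Per length between the first and the last summit of any tobacco library, this was between 0.329 sites per Mb on chromosome 12 and 0.589 on chromosome 8. As a share of the reproducible GLK2 sites, it was lowest on chromosome 16 with 13.0% (10.2 to 16.5) and highest on chromosome 15 with 18.8% (15.3 to 23.0). All 19 intervals held the share of the whole genome. Chromosome 10 had 63 sites and a share of 16.8% in spite of the 4 strongest ones.

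**Figure D5:**
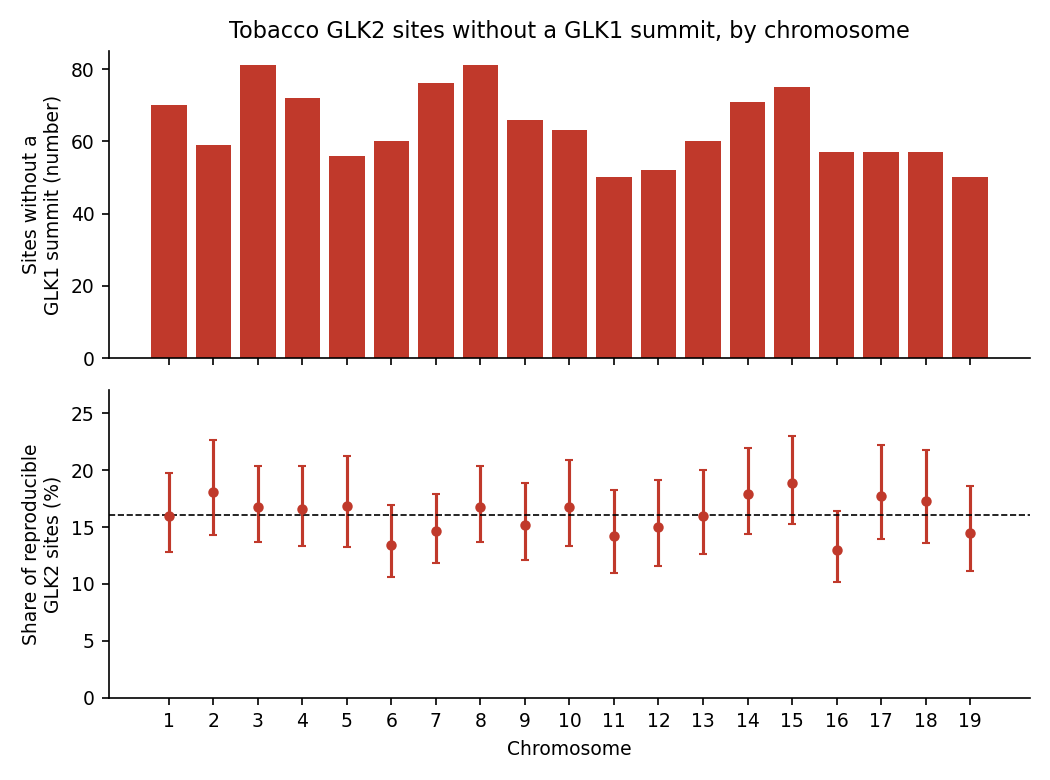
Number of tobacco GLK2 sites without a GLK1 summit on each of the 19 chromosomes (top) and their share of the reproducible GLK2 sites of that chromosome (bottom, %, with 95% Wilson intervals), where the dashed line is the share over the genome. Numbers ran from 50 to 81 and shares from 13.0% to 18.8%, and every interval held the line.

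Along the chromosomes the sites were spread much like those with GLK1. When each chromosome was cut into 10 parts of equal length, these held between 97 and 141 of the sites. The share without GLK1 was between 12.9% (10.7 to 15.5) in part 7 and 17.8% (15.3 to 20.7) in part 8, next to it. The interval of part 7 lay below the share of the whole genome, 16.0%, and those of the other parts held it. The central part, from 30% to 70% of the span, held 37.7% of the sites without GLK1 (35.0 to 40.4) and 38.7% of those with GLK1 in both lists (37.4 to 40.0). The outermost part at both ends together held 22.3% without GLK1 and 21.1% with GLK1 in both lists. The near and the distant sites had 38.1% and 36.5% in the central part, with intervals that overlap.

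The replicates disagreed most at a few sites. On chromosome 16 at 26384880, the fold change was 8.60 in replicate 1 and 44.6 in replicate 2. On chromosome 4 at 57149027 it was 8.50 and 36.6, and on chromosome 2 at 44468256 it was 21.8 and 93.3. The order was the opposite on chromosome 9 at 111281548, with 29.7 and 8.92, on chromosome 15 at 17993381, with 28.8 and 9.29, and on chromosome 7 at 89510661, with 26.4 and 9.13. The paired summits were 100 bp apart at 111281548, 129 bp at 17993381 and 11 bp at 89510661.

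At the limit of 8, inclusion turned on small differences. The members just inside, by the lower of both fold changes, were on chromosome 14 at 74805904 with 8.02 and 8.79, on chromosome 18 at 115654282 with 8.02 and 13.3, and the site on chromosome 4 at 53070247. Just outside were a site on chromosome 1 at 12973214 with 8.06 and 7.96, one on chromosome 12 at 26665964 with 7.96 and 13.6, and one on chromosome 8 at 13052194 with 14.1 and 7.89. No break in strength lies at this limit.

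The same rule gave other numbers with the TFs exchanged and in other species. Against the 16% of tobacco GLK2 sites without GLK1, 221 of 5949 tobacco GLK1 sites (3.71%, 3.26 to 4.23) had no GLK2 summit. The GLK2 lists are the longer ones and so offer more partners. With the GLK2 lists cut to their strongest 22032 and 21383 summits, the lengths of the GLK1 lists, 408 GLK1 sites (6.86%, 6.24 to 7.53) had no GLK2 summit. This setting was chosen after the data were seen. The GLK1 sites without GLK2 had a median distance of 296 bp to the nearest GLK2 summit. In tomato, 673 of 11258 GLK2 sites (5.98%, 5.55 to 6.43) had no GLK1 summit, a median of 462 bp from one, where the GLK1 lists held 55028 and 38527 summits. In maize it was 700 of 2766 (25.3%) at 404.5 bp, with GLK1 lists of 7246 and 5224 summits. By the paper, the maize GLKs carried a biotin tag in leaf protoplasts, and their data came from an earlier study. With the TFs exchanged, the share was 2.05% in tomato (127 of 6183), below that of GLK2 as in tobacco. Tomato GLK1 was expressed in cultivar AC++ and GLK2 in Micro-Tom, which by the paper carries a GLK2 loss-of-function mutation. TF and cultivar cannot be told apart there. In maize it was 31.1% (595 of 1912), above that of GLK2, but 6.60% (91 of 1378) without the summits on organelle sequences, while the share of GLK2 was 25.3% with or without them. The shares of GLK2 sites in tobacco lay between those of tomato and maize, while the median distance of 6810 bp was the longest of the 3. Genome size, list length, plant material and pull-down reagent differ between the species too, and their parts in these values cannot be told apart.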

How the data were processed

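ChIP-seq peak lists of 4 tobacco libraries (2 replicates each of GLK2 and GLK1) were used, with those of tomato and maize for the same rule. The authors mapped the reads with Bowtie2 2.3.2, removed unmapped, poorly placed and duplicate reads with SAMtools, and called summits for each library with MACS2 2.2.1 against a control that is not identified. The deposited values are the fold change over the control (a ratio), the −log10 p and the −log10 q at each summit. The deposited score was not used. The lists do not hold the exact depth of each library, for which the study gives only a range per species, and no reads were counted here. Samples were grouped by species, TF and replicate from the labels.

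Summit distances were computed on the same sequence, with positions counted from 1, in Python 3.11.15 with numpy 2.4.6, pandas 2.3.3 and scipy 1.17.1, and plotted with matplotlib 3.10.9. Sites within 1 kb were grouped. On simulated data all 500 planted sites were recovered. These were single sites, far apart and above the limit, with replicate summits close together. The simulation thus checked the computation only, and not how the rule works on crowded or weak summits. Named sites are the 10 strongest by geometric mean, the 5 groups with the most sites, the 5 farthest from GLK1, the 3 most unequal between replicates each way and the 3 on either side of the limit. The rule, members and lists were chosen with earlier results of these data known, and so were the alternatives (other limits, distances and GLK1 thresholds, 1 summit per region, each library left out), of which 2 were added after seeing the lists. Sites share their libraries and are not replicates, so no p-value was computed. No genome or annotation of N. benthamiana was used, so sequences, motifs and genes at the sites were not analysed here.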

Additional observations from a re-analysis of the deposited data

How the results depend on the processing

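The number of GLK2 sites without GLK1, 1227 as reported, was 4466 at a fold change minimum of 5, 405 at 12, 1883 when only GLK1 summits with a −log10 q of 5 or more counted, and 355 with a −log10 q minimum of 20 in place of the fold change. Their share of the reproducible sites, 16.0%, was 28.7%, 10.1%, 24.6% and 9.54% in these settings, 24.3% with summits within 75 bp, 13.0% within 300 bp, 14.5% with only the strongest summit of each peak region and 17.0% with replicate 2 as the anchor. The ratio of median fold changes, 0.696, was 0.610 at a minimum of 5 and 0.756 at 12, and below 1 in every setting for which it was computed. It was not computed for the other distances, the −log10 q limits, replicate 2 as the anchor or placed chromosomes alone.

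The share with a neighbour within 1 kb, 10.4%, was 8.64% at a minimum of 12, 6.86% within 75 bp, 15% within 300 bp, 13.3% with the −log10 q limit on GLK1, 8.73% with the −log10 q minimum, 15.3% with replicate 2 as the anchor, 8.56% for neighbours within 500 bp and 14.1% within 5 kb. With only the strongest summit of each region it was 0.208%, since that setting removes neighbours by its construction. The median distance to GLK1, 6810 bp, was 10342 bp at a minimum of 5, 273 bp within 75 bp, 17757 bp within 300 bp, 30777 bp with the −log10 q limit on GLK1, 13443 bp with the strongest summit of each region and 3985 bp with replicate 2 as the anchor.

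Without 1 of the libraries the number ranged from 1619 (without GLK1 replicate 1) to 4413 (without GLK2 replicate 1), where the remaining GLK2 list enters without a partner. Without GLK2 replicate 2 it was 2334. The share ranged from 21.1% to 31.3% (without GLK2 replicate 1), the ratio of medians from 0.680 to 0.756, the share with a neighbour from 11.3% to 19.9% (without GLK2 replicate 1, and 15.6% without GLK2 replicate 2), the median distance from 3631 (without GLK2 replicate 2, and 4253 without GLK1 replicate 2) to 6758 bp, and the largest share on 1 chromosome from 6.30% to 6.98%, beside 6.60% as reported. Placed chromosomes alone gave 1213 sites. Without the 4 strongest sites, a setting added after the data were seen, the ratio was again 0.696. With GLK2 lists cut to the length of the GLK1 lists, also added then, the share of GLK1 sites without GLK2 was 6.86%, beside 3.71%. No paired analysis was possible because no result comes from a test. Depth limits what a missing GLK1 summit means, as reads below the peak threshold are not in the lists.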
